A study of Mus musculus with 8 samples.

Results

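The genes described here are 37 interferon-stimulated genes in whole mouse pancreas, found by their symbols among the 36432 genes of the deposited tables. All 37 were present in each table. By role, 8 are GTPases induced mainly by interferon gamma. The 29 others are called targets of type I interferon here. They include Irf8 and Irf1, the latter a gene that interferon gamma induces directly. RNA with a poly(A) tail had been sequenced from the pancreas of 8 mice aged 6 to 8 weeks, of a strain given as mixed. All 8 carried Ptf1a-Cre +/KI, a Cre recombinase knocked into Ptf1a, which pancreatic progenitors and, later, acinar cells express. The 4 controls carried this allele alone. The 4 others were labelled as also carrying Gata6 lox/lox, floxed alleles of the transcription factor gene Gata6, which Cre would delete in cells with a history of Ptf1a expression. Blood, stromal and endothelial cells do not derive from such progenitors.

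Interferons are secreted proteins by which cells warn their neighbours of virus and other microbes. Type I interferons bind a receptor made of Ifnar1 and Ifnar2, and the kinases Jak1 and Tyk2 then activate a complex that holds Stat2 and Irf9, which enters the nucleus and binds a DNA element called the interferon-stimulated response element. Interferon gamma, made mainly by T cells and natural killer cells, binds a separate receptor and acts through a gamma-activated site, GAS, so that many genes answer both kinds of interferon. In the pancreas, as in other tissues, macrophages and dendritic cells express many of these genes without infection, and nearly every cell type can induce them.

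Levels are in rescaled FPKM, which is the authors' FPKM value (fragments per kilobase, scaled by library) divided by 100000; it is a per-length level whose unit is no fixed number of transcripts. Gata6 itself was listed at 2.12 to 2.76 in the controls and at 4.12 to 5.12 in the other group. It rose by a log2 fold change of 0.72 ± 0.11 (SE, n = 4 per group, limma, Benjamini-Hochberg adjusted p = 0.0443). That call held in 2 of 21 alternatives, with adjusted p-values from 0.0321 to 0.631, and with the letters of the library titles as a covariate the adjusted p was 0.198. A value per gene does not resolve the floxed part, so it does not check the deletion, and the second group is called labelled libraries 1 to 4 throughout. Acinar markers, 13 genes such as the elastases Cela2a and Cela1, identified the controls as pancreas, with summed levels of 312700 to 451240. In labelled libraries 1 to 4 the same sum was 2233, 167390, 29026 and 210870. Numbers of fragments implied by the deposited intervals totalled 6020901 to 7304521 per control and 4815873 to 7451554 per labelled library. In whole tissue, fewer cells of a type and less RNA per cell cannot be told apart.

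Promoter sequence shows letters that many of the members share, though not all. In the RefSeq table (GRCm38.p6, 250 bases before to 50 after each start), 28 of the 37 members were found. The core letters of the interferon-stimulated response element, searched as GAAANNGAA on both strands, stood in 19 of the 28, or 67.9%, against 9.76% of 27025 genes with a promoter in the table. Members of both classes held it: 13 of 22 type I targets and 6 of 6 GTPases. At least a pair of matches, overlapping ones included, stood in 11 members, against 0.736% of all genes. The GAS letters, searched as TTCNNNGAA on both strands, stood in 10 of the 28, or 35.7%, against 9.55% of all genes. A match describes the letters and does not show binding. The 9 members without an entry were Oas2, Mx1, Mx2, Usp18, Parp9, Parp14, Rtp4, Gbp6 and Iigp1.

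The following stretches show how these letters lie ahead of members described in detail, each on the strand of its gene, with the bases matched by either search in capitals. Isg15 (chr4:156200864-156200908), Oas1a (chr5:120907526-120907557), Bst2 (chr8:71537576-71537614) and Irgm1 (chr11:48871424-48871462) hold overlapping copies that read GAA along the gene's strand, while in Ifit1 (chr19:34640768-34640825) the copies lie on the opposite strand and read TTC. Irgm2 (chr11:58214890-58214933) and Igtp (chr11:58199499-58199542), neighbours in the genome, both hold a GAS match directly ahead of a response element. In Bst2 the GAS match overlaps the response element copies.
Isg15: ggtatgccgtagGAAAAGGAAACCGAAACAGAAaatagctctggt
Ifit1: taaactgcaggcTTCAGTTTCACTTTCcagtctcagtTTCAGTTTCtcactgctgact
Oas1a: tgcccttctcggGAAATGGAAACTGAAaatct
Bst2: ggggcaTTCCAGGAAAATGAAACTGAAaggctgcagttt
Irgm1: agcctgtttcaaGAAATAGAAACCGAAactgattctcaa
Irgm2: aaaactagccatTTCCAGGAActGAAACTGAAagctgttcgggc
Igtp: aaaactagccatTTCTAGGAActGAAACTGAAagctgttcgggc

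Across all 37 members the mean was higher in the labelled libraries than in the controls, and no member passed the test. Of the 37, 33 reached the expression minimum, a mean of 1 rescaled FPKM over the 8 libraries, and were tested. By limma with Benjamini-Hochberg adjustment over 11860 genes, 0 of 33 were called at an adjusted p under 0.05, where 0.219% of all genes tested were called higher. All 33 had a log2 fold change above 0, against 57.9% of all genes tested. At an unadjusted p under 0.05, 26 of 33 were higher and none lower, against 17.9% of all genes higher. The groups of 13 of the 33 did not overlap, against 10.9% of all genes tested. Among the 33, 15 had a control mean under 1 and so passed the minimum through the labelled libraries, which had to be higher in them. Of the 18 members with a control mean of at least 1, all 18 were higher, against 5592 of the 10588 genes chosen in that way. By limma, 13 of the 18 were higher at an unadjusted p under 0.05 (15.4% of the 10588), and 5 had groups that did not overlap (9.27%). With no expression minimum, all 37 could be fitted: 28 were higher at an unadjusted p under 0.05 (14% of 25129 genes), 14 had groups that did not overlap (8.28%), and 0 were called.

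The median log2 fold change was 0.97 over the 26 type I targets tested and 0.93 over the 7 GTPases tested, against 0.10 over all genes tested. Of these, 13 type I targets and 2 GTPases had a control mean under 1 and so passed the minimum through the labelled libraries. Over genes with a control mean of at least 1 the medians were 0.90 (13 type I targets) and 0.93 (5 GTPases), against 0.035 over all such genes. These values are on the log2(rescaled FPKM + 1) scale, where low genes show less than their full change. Of the labelled libraries, library 4 lay nearest the controls in the members' own values, with 14 of the 37 above every control. Leaving it out therefore favours calls, for single members too, and no member was called when any other single library was left out. Without labelled library 4, 25 of the 33 tested members passed limma's Benjamini-Hochberg adjusted threshold, 19 type I targets and 6 GTPases, where 11.5% of all genes tested were called higher. In that fit the median log2 fold change of the 33 was 1.16, and adjusted p-values ran from 0.0321 to 0.201. Over all alternatives run, the adjusted p of single members reached 0.980. The 8 that were not called in it were Irf1, Ddx60, Ifit1, Ifit2, Ifit3, Rsad2, Ifi35 and Gbp3.

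**Figure D1:**
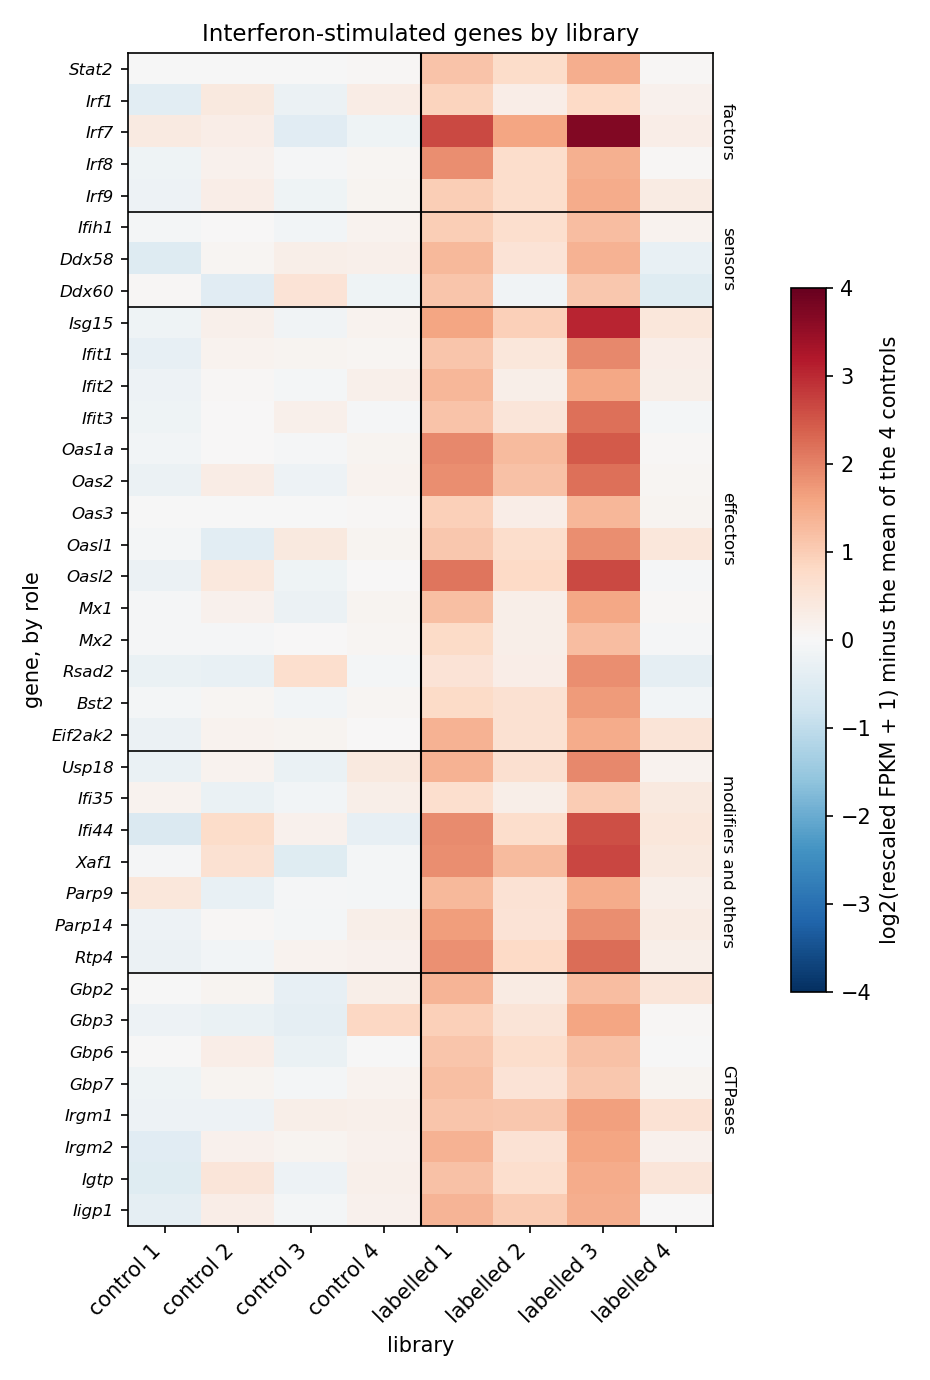
Difference of each member's log2(rescaled FPKM + 1) from the mean of the 4 controls, with 1 column per library and 1 line per gene, grouped by role; red is higher and blue lower. Labelled library 3 has all 37 members above every control, and labelled library 4 has 14.

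Of the 5 transcription factors of the pathway none was called. Irf7, which drives transcription of interferon alpha genes and is itself induced by interferon, had the largest log2 fold change of the tested members. Its level (chr7:148448605-148452380 on mm9) was 3.21, 2.91, 1.36 and 1.90 in controls 1 to 4 and 19.4, 8.76, 41.6 and 2.95 in labelled libraries 1 to 4. Labelled libraries 1 to 3 lay above every control and library 4 within their range. Its log2 fold change of 2.06 ± 0.65 (SE) had a limma adjusted p of 0.114. Without labelled library 4 it was 2.65 (adjusted p = 0.0347, and 0.0347 to 0.633 over all alternatives). Phrf1 overlaps Irf7 in the annotation, and reads of overlapping genes may be shared. Few fragments lie behind the control values of Irf7: the deposited intervals implied 1.26 to 9.26 per control and 6.96 to 263 per labelled library.

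Stat2 and Irf9, partners in the complex that binds the response element, were higher by less. Stat2 was 1.18, 1.18, 1.20 and 1.32 in the controls and 3.90, 2.70, 5.12 and 1.30 in the labelled libraries, so that the controls hardly differed and labelled library 4 lay among them. Irf9 was 2.06 to 3.26 in the controls and 6.03, 4.76, 8.95 and 3.40 in the labelled libraries, with no overlap of the groups. Rnf31, which overlaps Irf9 in the annotation, had a mean of 5.28 over the 8 libraries against 4.18 for Irf9, and reads may be shared. The Stat2 and Irf9 log2 fold changes were 0.85 ± 0.28 and 0.88 ± 0.25, with limma adjusted p-values of 0.116 and 0.105. Irf8, a factor of macrophages, dendritic cells and B cells, was 1.34 to 2.00 in the controls and 8.62, 3.33, 6.08 and 1.77 in the labelled libraries. Irf1, which interferon gamma induces directly, differed least of the factors, at 2.58 to 5.28 against 7.99, 4.78, 7.39 and 4.48. Irf1 and Irf8 were higher in labelled library 1 than in library 3, unlike Stat2, Irf7 and Irf9.

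None of the 3 cytoplasmic RNA sensors was called. Ifih1, the helicase MDA5 that detects long double-stranded RNA, was 0.650, 0.767, 0.616 and 0.902 in the controls and 2.41, 1.77, 3.09 and 0.925 in the labelled libraries. The groups did not overlap, by a narrow margin set by labelled library 4, and the log2 fold change was 0.76 ± 0.24 (limma adjusted p = 0.113). Ddx58, the helicase RIG-I, was 1.23 to 2.72 in the controls and 6.94, 3.66, 7.42 and 1.61 in the labelled libraries (adjusted p = 0.209). Ddx60, a related helicase, had the smallest log2 fold change of the tested members, 0.39 ± 0.41 (limma adjusted p = 0.514), with controls from 0.253 to 1.51 and labelled library 4 below every control at 0.227.

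Among the 14 antiviral effectors, Isg15, a ubiquitin-like protein that is attached to other proteins during the response, had the largest log2 fold change. This rank depends on the scale: with 0.1 added in place of 1 before the logarithm, Oas2 (2.36) and Oas1a (2.19) exceeded Isg15 (2.13). Isg15 (chr4:155573533-155574927 on mm9) was 0.639, 1.11, 0.662 and 1.02 in the controls and 4.46, 2.55, 14.2 and 1.51 in the labelled libraries. Every labelled library lay above every control, and library 3 stood far above the other labelled ones. The mean was 0.856 ± 0.24 over the controls against 5.67 ± 5.79 over the labelled libraries (SD, n = 4 each), where the SD exceeded the mean. The log2 fold change was 1.498 ± 0.49 (SE, limma adjusted p = 0.117), and 1.85 without labelled library 4 (adjusted p = 0.0397, and 0.0397 to 0.631 over all alternatives).

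The oligoadenylate synthetases, which sense double-stranded RNA and make the messenger that switches on RNase L, followed the same libraries. Oas1a was 0.437, 0.572, 0.482 and 0.678 in the controls and 4.83, 2.74, 7.42 and 0.577 in the labelled libraries. Labelled library 4 sat inside the control range, and the 3 others lay well above the highest control. Oas2 was 0.163 to 0.705 in the controls and 4.01, 2.13, 5.29 and 0.456 in the labelled libraries. The limma log2 fold changes were 1.42 ± 0.46 for Oas1a (adjusted p = 0.114) and 1.33 ± 0.43 for Oas2 (adjusted p = 0.115). Oas3 stayed below the expression minimum, at 0.0268 to 0.0588 in the controls and 0.996, 0.256, 1.63 and 0.116 in the labelled libraries, with no overlap of the groups.

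The synthetase-like genes split in their overlap. Oasl1 was 0.0543 to 0.816 in the controls and 1.95, 1.26, 4.12 and 0.932 in the labelled libraries, without overlap (limma adjusted p = 0.115). Oasl2 was 2.00 to 3.74 in the controls and 14.8, 5.13, 20.98 and 2.46 in the labelled libraries (log2 fold change 1.38 ± 0.54, limma adjusted p = 0.141). Oas1a, Oas2 and Oas3 are neighbours on chromosome 5, as are Oasl1 and Oasl2, and fragments that fit several related genes are shared out by likelihood, so single values within these families are uncertain.

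The Ifit genes encode proteins that bind foreign RNA ends and block its translation, and Ifit1, Ifit2 and Ifit3 lie side by side on chromosome 19. Ifit1 was 0.0858, 0.533, 0.50 and 0.443 in the controls and 1.97, 0.888, 4.19 and 0.654 in the labelled libraries. Ifit2 was 0.288 to 0.709 in the controls and 2.74, 0.748, 3.28 and 0.733 in the labelled libraries. Neither gene's groups overlapped, although labelled library 4 cleared the highest control by little. Ifit3 was 1.32 to 2.00 in the controls and 4.75, 2.64, 11.04 and 1.46 in the labelled libraries, with library 4 inside the control range. Their limma log2 fold changes were 0.94, 0.84 and 0.93, with adjusted p-values of 0.141, 0.148 and 0.181, and none of the 3 passed without labelled library 4 either (adjusted p = 0.0504, 0.0549 and 0.0510).

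Bst2, or tetherin, which holds budding virus at the cell surface, had the highest level of all members in the controls. Bst2 (chr8:74058163-74061336 on mm9) was 13.5, 15.2, 13.1 and 15.3 in the controls and 25.0, 22.4, 49.1 and 13.2 in the labelled libraries. Labelled libraries 1 to 3 were above every control and library 4 was at the lower end of the control range. Its log2 fold change was 0.75 ± 0.34 (limma adjusted p = 0.179), and 1.03 without labelled library 4 (adjusted p = 0.0421, and 0.0421 to 0.651 over all alternatives). After Bst2 the next control mean was that of Irf1, at 3.97 ± 1.34 (SD, n = 4), and 19 of the 37 members had a control mean under 1.

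Eif2ak2, the kinase PKR that halts translation when it meets double-stranded RNA, had the lowest adjusted p of the effectors. It was 0.464, 0.90, 0.852 and 0.756 in the controls and 3.57, 1.66, 3.83 and 1.47 in the labelled libraries, without overlap (log2 fold change 1.00 ± 0.25, limma adjusted p = 0.101). The gene n-R5s29, which overlaps Eif2ak2 in the annotation, had a mean of 1.86 over the 8 libraries against 1.69 for Eif2ak2, and reads may be shared. Rsad2, or viperin, an enzyme that makes a chain-terminating nucleotide, was 0.459 to 1.88 in the controls and 1.66, 1.18, 5.56 and 0.410 in the labelled libraries, with library 3 alone above every control (adjusted p = 0.389). Mx1 and Mx2, dynamin-like GTPases that trap viral parts, stayed below the expression minimum. Mx1 was listed at 0 to 0.333 in the controls and at 1.71, 0.390, 2.45 and 0.209 in the labelled libraries. Mx2 was listed at 0 in controls 1 and 2 and in labelled library 4, at 0.0433 and 0.0924 in the other controls, and at 0.755, 0.227 and 1.42 in labelled libraries 1 to 3.

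**Figure D2:**
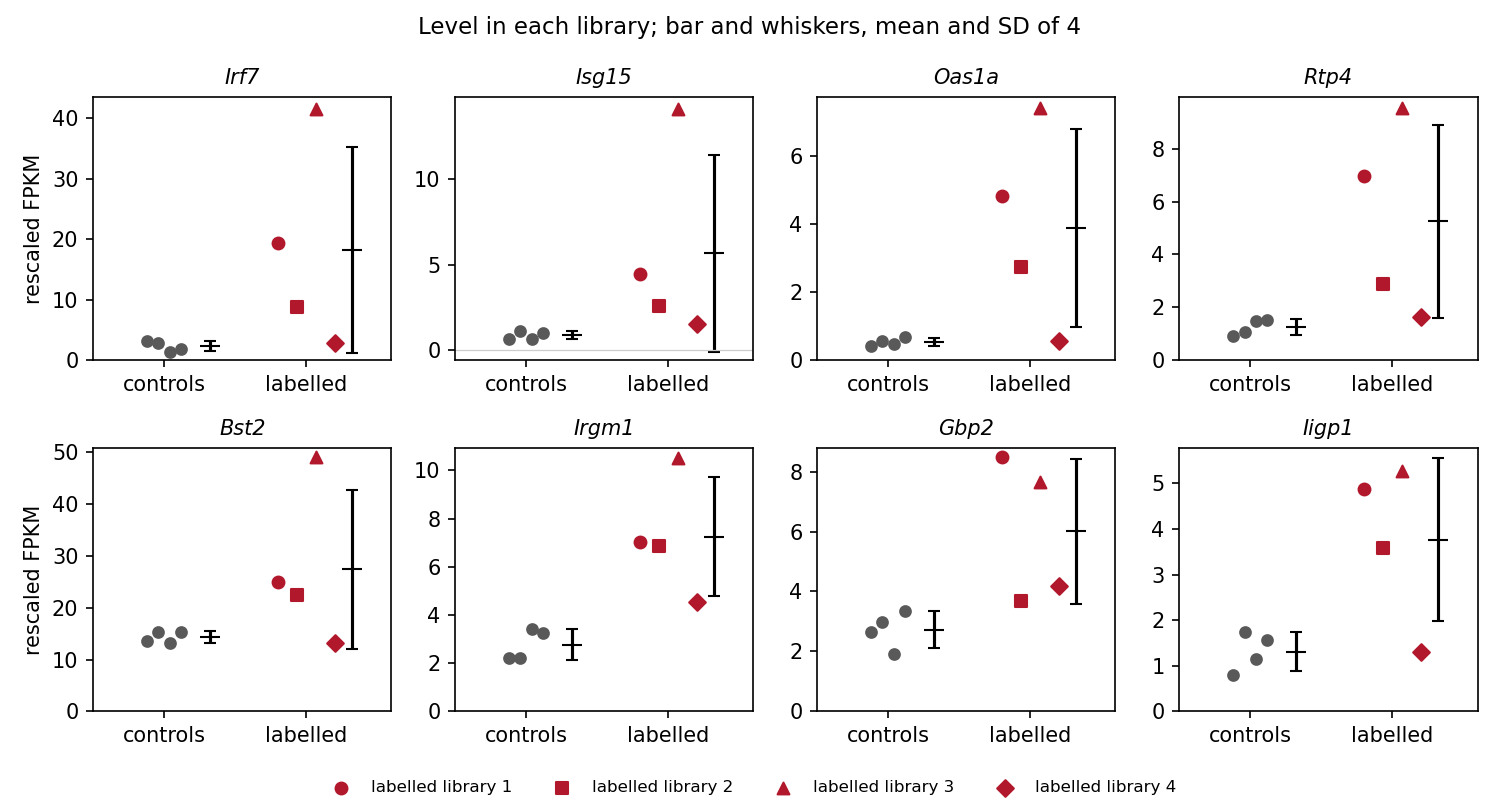
Level of 8 members (rescaled FPKM, linear axes) in the 4 controls and in labelled libraries 1 to 4, each with its own symbol; bars and whiskers beside the points are the mean and SD of 4. Labelled library 3 is highest in 7 of the 8 panels, library 1 in that of Gbp2, and library 4 is the lowest labelled library in the same 7.

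Genes that tune or accompany the response were all 7 tested and none was called. Xaf1, an interferon-induced partner of the apoptosis inhibitor XIAP, had the largest log2 fold change among them, 1.55 ± 0.46 (limma adjusted p = 0.110). It was 1.64, 3.14, 0.962 and 1.57 in the controls and 8.93, 5.52, 16.5 and 2.54 in the labelled libraries. With 0.1 added in place of 1 before the logarithm, Ifi44 (2.24) and Usp18 (2.23) exceeded Xaf1 (1.95). Ifi44 varied widely between controls, from 0.194 to 1.98, and was 5.56, 1.92, 9.73 and 1.41 in the labelled libraries (adjusted p = 0.127). Rtp4, a chaperone of cell-surface receptors, was 0.919 to 1.54 in the controls and 6.96, 2.88, 9.54 and 1.62 in the labelled libraries (adjusted p = 0.115). In Rtp4 the groups did not overlap, and in Xaf1 and Ifi44 they did.

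Usp18, the protease that removes Isg15 and dampens the type I receptor, was 0.0683 to 0.712 in the controls and 2.43, 1.03, 3.90 and 0.440 in the labelled libraries. Parp9 and Parp14, ADP-ribosyltransferase family genes on chromosome 16, were 1.43 to 3.10 and 0.505 to 1.06 in the controls. In the labelled libraries Parp9 was 6.45, 3.46, 7.49 and 2.52, and Parp14 was 4.47, 1.53, 5.26 and 1.16. The groups of Parp14 did not overlap, and those of Parp9, which shares its position with Dtx3l, did. Ifi35 was 1.90 to 3.06 in the controls and 4.51, 3.08, 6.04 and 3.52 in the labelled libraries, without overlap, with a log2 fold change of 0.58 ± 0.20. Gm11626, which overlaps Ifi35, had a mean of 3.83 over the 8 libraries against 3.39 for Ifi35, and reads may be shared. The limma adjusted p-values were 0.138 for Usp18, 0.119 for Parp9, 0.116 for Parp14 and 0.119 for Ifi35.

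The 8 GTPases restrict microbes that live in vacuoles: guanylate-binding proteins (Gbp) coat and lyse the vacuole, and immunity-related GTPases of the Irgm type regulate the others. Irgm1 (chr11:48675470-48685185 on mm9) had the lowest adjusted p of all 37 members. It was 2.22, 2.21, 3.40 and 3.27 in the controls and 7.03, 6.86, 10.5 and 4.56 in the labelled libraries. All 4 labelled libraries lay above every control, and the mean was 2.77 ± 0.65 against 7.24 ± 2.46 (SD, n = 4 each). The log2 fold change was 1.10 ± 0.23 (SE, limma adjusted p = 0.0857), and 1.27 without labelled library 4 (adjusted p = 0.0321, and 0.0321 to 0.631 over all alternatives). Cufflinks marked the Irgm1 estimate of 1 library, labelled library 2, as failed.

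Irgm2 and Igtp, which shared the arrangement of promoter letters shown above, were near each other in level. Irgm2 was 0.634, 1.53, 1.42 and 1.497 in the controls and 4.90, 2.36, 5.61 and 1.49 in the labelled libraries (limma adjusted p = 0.124). Igtp was 0.356, 1.65, 0.675 and 1.22 in the controls and 3.32, 2.06, 4.37 and 1.67 in the labelled libraries (adjusted p = 0.110). The groups of Igtp did not overlap, with control 2 at 1.65 just under labelled library 4. Iigp1, an effector GTPase on vacuoles, was 0.794 to 1.74 in the controls and 4.88, 3.59, 5.26 and 1.30 in the labelled libraries (adjusted p = 0.117).

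Among the guanylate-binding proteins, Gbp2 was 2.64, 2.996, 1.92 and 3.36 in the controls and 8.47, 3.68, 7.66 and 4.19 in the labelled libraries, without overlap (log2 fold change 0.86 ± 0.26, limma adjusted p = 0.110). Here labelled library 4 lay above library 2. Gbp3 was 1.03 to 3.58 in the controls and 4.08, 2.74, 6.76 and 1.68 in the labelled libraries, with control 4 above 2 of them. Gbp7 was 0.443 to 0.797 in the controls and 2.68, 1.35, 2.40 and 0.724 in the labelled libraries. Gbp6 stayed below the minimum, at 0.212 to 0.720 against 2.10, 1.35, 2.22 and 0.433. The adjusted p-values of Gbp3 and Gbp7 were 0.191 and 0.129 by limma.

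**Figure D3:**
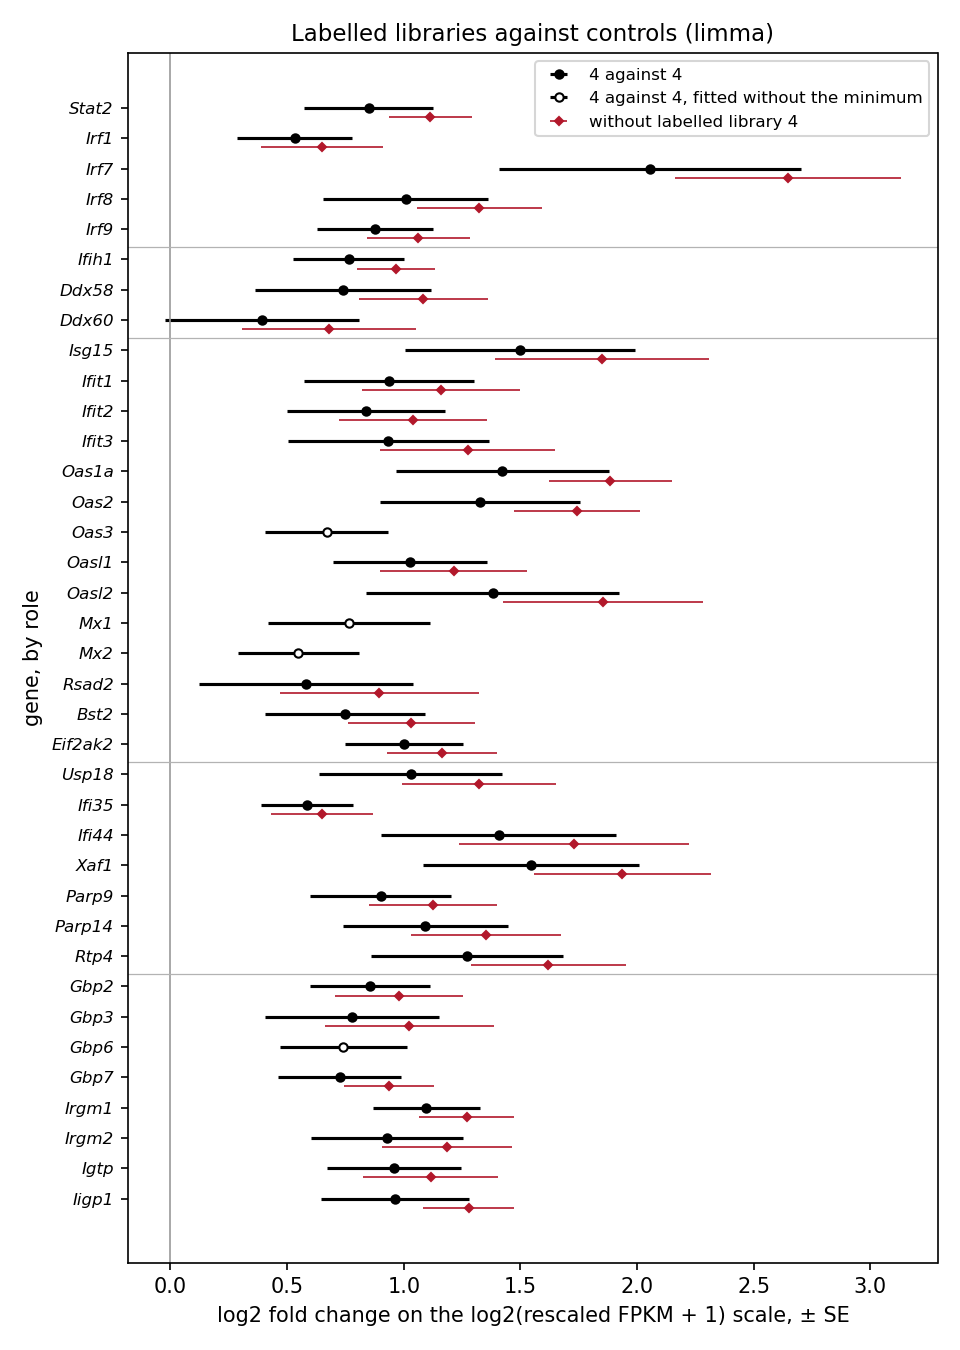
Log2 fold change ± SE of each member, labelled libraries against controls, in the fit of 4 against 4 (black, open where the member lay below the expression minimum) and without labelled library 4 (red). Every black point is above 0, from 0.39 for Ddx60 to 2.06 for Irf7, and every red point lies to the right of its black point.

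The labelled libraries differed in how far the members lay above the controls. In labelled libraries 1 to 4, 36, 32, 37 and 14 of the 37 members were above every control, against 44.0%, 25.6%, 43.6% and 25.98% of all genes tested. The median level of the type I targets relative to their control mean was 5.05, 2.19, 7.05 and 1.26 in the 4 libraries. For the GTPases the corresponding medians were 3.57, 2.15, 3.94 and 1.17. In labelled library 4, 21 members lay within the control range and 2, Ddx60 and Rsad2, below every control.

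Labelled libraries 1 and 3 both lay above library 2, and library 2 above library 4, in 35 of 37 members, against 23.3% of all genes tested. Between the highest libraries, 26 of 29 type I targets and 6 of 8 GTPases were higher in library 3 than in library 1, where 54.8% of all genes tested were. All 14 effectors were higher in library 3, by a median ratio of 1.76, while the median ratio was 1.11 for the GTPases. The 5 members higher in library 1 were Irf1, Irf8, Ddx60, Gbp2 and Gbp7. Each library is 1 animal, so this order has no replicate of its own.

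The interferon genes themselves were at the floor of detection. Of 19 interferon genes in the tables, 16 were listed at 0 in all 8 libraries. Ifnb1 was listed above 0 in labelled library 1 alone, at 0.0364, and Ifng, the gene of interferon gamma, in labelled libraries 1 and 3 alone, at 0.0490 and 0.0561. Ifnz was listed above 0 in control 4, at 0.0996, and in labelled libraries 1, 3 and 4. None reached the expression minimum, and at these levels a difference between the groups was not detectable.

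Of 10 receptor, kinase and STAT genes, 9 were tested and 8 were higher, against 57.9% of all genes tested. By limma, 7 were higher at an unadjusted p under 0.05 (17.9% of all genes) and 0 were called. Without labelled library 4, Ifngr1, Jak1 and Stat3 passed limma's adjusted threshold, where 11.5% of all genes were called higher. Ifngr1, the binding chain of the interferon gamma receptor, was 4.67, 9.07, 6.06 and 7.35 in the controls and 28.5, 10.04, 24.4 and 12.9 in the labelled libraries (log2 fold change 1.27 ± 0.34, limma adjusted p = 0.103). Ifnar2 was 7.99 to 12.6 against 19.8, 12.5, 16.9 and 8.17, and Il10rb was 10.8 to 12.4 against 10.2, 8.08, 14.1 and 12.6.

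Of 5 negative regulators, 4 were tested and none was called, with or without labelled library 4. Irf2, Ptpn2 and Socs3, the last a feedback inhibitor of JAK kinases, had log2 fold changes of 0.35, 0.23 and 0.44. Of 15 other genes of nucleic acid sensing in the tables, 13 were tested and 11 were higher, against 57.9% of all genes tested. By limma, 6 were higher at an unadjusted p under 0.05 (17.9% of all genes) and 0 were called. Of the 13, 4 had a control mean under 1 and passed the minimum through the labelled libraries. Without labelled library 4, Tlr3, Tmem173, Irf5, Zbp1 and Trim25 passed limma's adjusted threshold, where 11.5% of all genes were called higher. Irf3, the factor that sensors activate before any interferon is made, was 7.89 to 14.6 in the controls, against 7.85 to 10.96 in the labelled libraries. Trim25, the ubiquitin ligase that aids RIG-I, was 3.59 to 4.18 against 5.85, 5.16, 7.07 and 5.45, without overlap (limma adjusted p = 0.1001), and Mavs, the adaptor of the RNA sensors, was 3.94 to 5.03 against 2.99 to 4.19.

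A further 39 type I targets that were not members gave 34 tested genes, of which 33 were higher, against 57.9% of all genes tested. By limma, 22 were higher at an unadjusted p under 0.05 (17.9% of all genes) and 0 were called. Without labelled library 4, 20 passed, where 11.5% of all genes were called higher. Of the 34, 6 had a control mean under 1. Their median log2 fold change was 0.95. Ly6e, the most abundant, was 167 to 200 in the controls and 163, 236, 252 and 185 in the labelled libraries. Ifitm3, which blocks virus entry from endosomes, was 69.6 to 116 against 149, 140, 294 and 168, without overlap (limma adjusted p = 0.104). Ifi27l1 was 73.4 to 132 against 51.6, 202, 89.9 and 110, which put labelled library 1 lowest of all 8.

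Another 14 interferon-inducible GTPase genes gave 5 tested, all 5 higher, against 57.9% of all genes tested. By limma, 4 were higher at an unadjusted p under 0.05 (17.9% of all genes) and 0 were called. Without labelled library 4 all 5 were called, where 11.5% of all genes were called higher. However, 4 of the 5 had a control mean under 1 and reached the minimum through the labelled libraries, which had to be higher in them. Of 12 further interferon gamma targets, 8 were tested, 2 of them with a control mean under 1. Of the 8, 6 were higher and 2, Psmb10 and Wars, were lower, where 57.9% of all genes tested were higher, and 0 were called. Without labelled library 4, 5 passed, of which Ciita, Psmb8, Psmb9 and Tap1 rose and Psmb10 fell. In that fit 1366 of the 11860 genes tested were called higher and 1200 lower. Wars, a tRNA synthetase gene, was 64.6 to 89.3 in the controls and 6.23, 63.1, 15.5 and 82.9 in the labelled libraries. Psmb10, an immunoproteasome subunit gene, was 42.8 to 66.9 against 6.84, 23.0, 13.4 and 44.5, and fell by 1.96 on the log2 scale without labelled library 4 (limma adjusted p = 0.0354, and 0.0354 to 0.631 over all alternatives). Both were lowest in labelled libraries 1 and 3, the libraries with the lowest acinar sums. Tap2, a peptide transporter subunit, was 3.71 to 8.72 against 10.2, 7.61, 12.7 and 4.14.

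Markers of some other cell types, such as macrophages and fibroblasts, moved with the members, and their part in the result was not tested. The 14 macrophage markers in the tables, Lyz2 and C1qb the most abundant, were all 14 higher, against 57.9% of all genes tested. By limma, all 14 were higher at an unadjusted p under 0.05 (17.9% of all genes) and 0 were called. Without labelled library 4, 13 of these markers were called, where 11.5% of all genes were called higher. Their median log2 fold change was 1.64. Their summed level was 120.9 to 190.7 per control, against 1019, 312.3, 889 and 253 in labelled libraries 1 to 4, and none was listed at 0 in any library. Divided by this sum, the summed level of the 29 type I targets was 0.232 to 0.411 in the controls and 0.167, 0.301, 0.309 and 0.214 in the labelled libraries. For the 8 GTPases the same quotient was 0.0484 to 0.0959 in the controls and 0.0368, 0.0768, 0.0504 and 0.0634 in the labelled libraries. By this quotient no labelled library lay above the controls in either class. Libraries 1 and 4 lay below them for the type I targets, and library 1 for the GTPases. Such quotients of sums are weighted to the most abundant genes of each list. Gene by gene, the median level of the macrophage markers relative to their control mean was 7.33, 2.15, 6.52 and 1.58 in labelled libraries 1 to 4. The corresponding medians were 5.05, 2.19, 7.05 and 1.26 for the type I targets and 3.57, 2.15, 3.94 and 1.17 for the GTPases.

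Fibroblast markers, 9 genes led by Dcn and Sparc, summed to 225 to 302 in the controls and 908, 363, 1306 and 417 in the labelled libraries. All 9 were higher, against 57.9% of all genes tested, and 0 were called. The type I sum divided by the fibroblast sum was 0.140 to 0.239 in the controls and 0.188, 0.259, 0.211 and 0.130 in the labelled libraries. Endothelial markers, 10 genes led by Plvap and Egfl7, summed to 47.7 to 63.6 in the controls and 56.5, 53.1, 62.5 and 46.8 in the labelled libraries. Divided by the endothelial sum, the type I targets were 0.662 to 1.06 in the controls and 3.02, 1.77, 4.40 and 1.155 in the labelled libraries. By the endothelial sum every labelled library lay above the controls, while by the fibroblast sum library 2 lay above them and library 4 below.

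Lymphoid and granulocyte markers differed in which labelled library led. B and plasma cell markers, 7 genes led by Igj and Cd79b, summed to 9.70 to 44.3 in the controls and 26.1, 28.997, 82.7 and 29.9 in the labelled libraries. T and natural killer cell markers, 13 genes led by Cd3g and Cd4, summed to 0.937 to 4.64 against 13.4, 7.93, 9.28 and 5.64, and 8 of the 13 were listed at 0 in control 1. Neutrophil markers, 7 genes led by S100a8 and S100a9, summed to 2.22 to 49.2 against 8.11, 12.3, 59.8 and 10.7, and Ly6g, named after its values were seen, was listed above 0 in labelled library 3 alone. Labelled library 3 was highest in the B cell and neutrophil lists and in the type I targets. Dendritic cell markers, 10 genes led by Cd209a and Zbtb46, summed to 2.05 to 2.97 against 16.7, 5.27, 8.13 and 2.51, highest in labelled library 1. Siglech, a marker of plasmacytoid dendritic cells, strong producers of type I interferon, was also named after its values were seen. It was 0.105 to 0.245 in the controls and 0.470, 0.304, 0.503 and 0.194 in the labelled libraries.

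Adipocyte markers separated labelled library 4 from the controls more than the interferon-stimulated genes did. The 9 markers, led by Fabp4 and Cfd, summed to 76.5 to 224 per control, against 502, 439, 382 and 450 in labelled libraries 1 to 4. Plin4 and Cidec, which coat fat droplets, rose, with limma adjusted p-values of 0.0423 and 0.0363. With the letters of the library titles as a covariate neither passed (adjusted p = 0.156 and 0.186). In labelled library 4, 8 of 9 adipocyte, 8 of 9 fibroblast and 12 of 14 macrophage markers were above every control. Of the members 14 of 37 were, against 25.98% of all genes tested. These are counts in 1 library, and the difference between the lists was not tested.

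**Figure D4:**
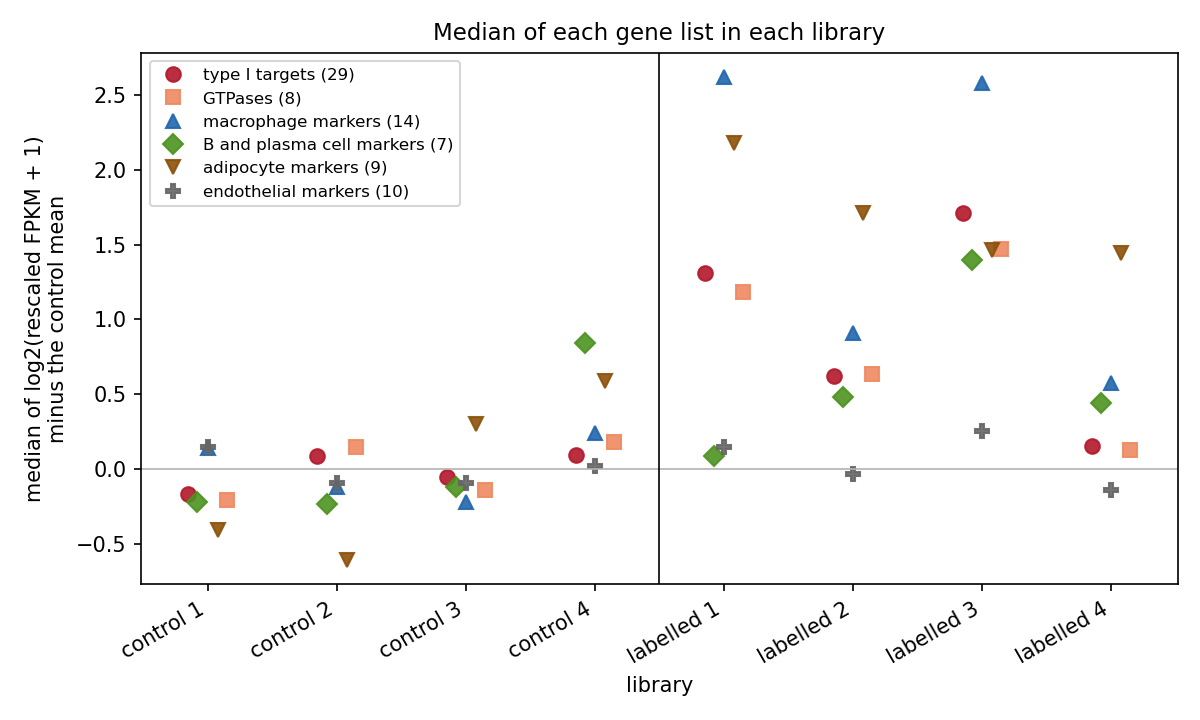
Median over the genes of each list of log2(rescaled FPKM + 1) minus the control mean, in the 4 controls and labelled libraries 1 to 4; points are shifted slightly sideways so that they do not hide each other. The type I targets reach 1.31, 0.62, 1.71 and 0.15 in labelled libraries 1 to 4, the macrophage markers 2.62, 0.91, 2.59 and 0.57, and the endothelial markers stay near 0.

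Titles of the libraries open with different letters, BKD for control 1 and labelled libraries 1, 3 and 4, ASK for controls 2 to 4 and BSH for labelled library 2, and what these letters stand for is not given in the labels. Within BKD titles the median log2 fold change of the tested members was 1.29, from 1 control against 3 labelled libraries. Within ASK and BSH titles it was 0.55, from 3 controls against 1 labelled library. With the title letters as a covariate (BKD against the others) the median was 0.94, 0 of 33 members were called by limma, and 13 were higher at an unadjusted p under 0.05 (8.9% of all genes). The lowest adjusted p in that fit was 0.266. Without labelled libraries 1 and 3, whose acinar sums were lowest, the median was 0.40, 0 were called and 6 were higher at an unadjusted p under 0.05 (7.61% of all genes). Nothing in the labels says how the animals of a group were related or housed. The p-values take the libraries as independent of each other, which could not be checked.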

How the data were processed

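Per the submitters' processing notes, reads were handled with CASAVA 1.8, TopHat2 2.0.4, Bowtie and Cufflinks 2.0.1 on mouse builds mm9 and NCBIM37; read length and strand are not stated there. The authors deposited 1 table of gene FPKM values per sample, with interval bounds. Each FPKM was divided by 100000, and the repeated entries of 14 gene IDs were added up. The 8 abundant enzyme genes without an estimate in some library were left out. Genes with a mean of at least 1 over 8 samples were tested with limma 3.58.1 (R 4.3.3) on log2(rescaled FPKM + 1) with an intensity trend, two-sided, Benjamini-Hochberg adjusted over 11860 genes at a threshold of 0.05. The fit was tested on simulated data. Implied fragments are the squared ratio of FPKM to the interval's standard error; they describe depth and are no counts, so no count test was run. The members, pathway lists and marker lists were chosen with earlier results of these data known. All 37 members are named; of other lists, genes that passed or else the 3 (markers, 2) of highest mean level, besides those said to be chosen later. A gene of the pathway lists is not reported here. The equal-sum scaling used protein-coding genes outside the digestive enzymes. Other alternatives were pseudocounts of 0.1 and 5, other minimums, scalings and variance models, single title letters, and leaving out libraries; counts over genes with a control mean of at least 1 were added after seeing the data. Coordinates of genes are those of the files on mm9, and promoters are on GRCm38.p6 from RefSeq.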

Additional observations from a re-analysis of the deposited data

Results flagged for a closer look

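In each group of 4 samples the gap between an extreme sample and its nearest neighbour was compared with the range of the group. Of 74 groups checked (37 members in 2 groups), 4 had a sample that stood apart, all 4 in controls, and chance alone gives about 1 group in 20. Control 4 stood above the other controls in Stat2 at 1.32, in Oas3 at 0.0588 and in Gbp3 at 3.58 rescaled FPKM. Control 1 stood below the others in Irgm2 at 0.634. No group of labelled libraries met the limit, including those in which labelled library 3 was far above the rest.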

How the results depend on the processing

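No member was called at an adjusted p under 0.05 by limma under any alternative run except without labelled library 4, where 25 were, so that the count ran from 0 to 25 when libraries were left out in turn. Members whose groups did not overlap numbered 13 of 33, against 10.9% of all genes tested. They numbered 1 of 6 tested at a minimum mean of 5 (9.05% of all genes), 22 of 35 after scaling to implied fragment totals (51.5%), 7 of 33 after quantile normalization (7.15%), 28 within BKD titles (35.9%) and 28 within ASK and BSH titles (30.7%), where 1 side is a single library. Leaving out libraries in turn gave 13 to 28, the latter without labelled library 4 (20.2%). The median log2 fold change of the members, 0.94, was 0.45 with a pseudocount of 5, 1.88 with implied totals and 0.40 without labelled libraries 1 and 3. That of the type I targets, 0.97, was 1.56 with a pseudocount of 0.1, 1.96 with implied totals and 0.40 without those libraries. That of the GTPases, 0.93, was 0.43 with a pseudocount of 5, 1.85 with implied totals and 0.42 without them. Implied totals moved the median of all genes to 1.12, the equal sum moved it to 0.32, and the medians of the members were above both. Single members kept their direction and side of the threshold in 671 of 699 refits; 25 passed without labelled library 4, and 3 reversed. Ddx60 was -0.11 for ASK and BSH titles alone. With labelled libraries 1 and 3 left out, Ddx60 was -0.30 and Rsad2 -0.043. Where a group is left with 1 library, its spread is assumed to be that of the other group. No paired analysis was possible because the labels give no replicate numbers; those used here follow accession order. Low levels limit precision: 19 of 37 members had a control mean under 1. Members above that mean can also rest on few fragments. Those implied per control were 1.26 to 9.26 for Irf7, 1.72 to 5.49 for Xaf1 and 1.84 to 7.79 for Ddx58. Isg15, with a mean under 1, had 3.0 to 7.0, while Bst2 had 67.0 to 114.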

Other observations

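Islet markers, 6 genes led by Ins2 and Ins1, summed to 554 to 1460 per control, against 5912, 1477, 938 and 759 in labelled libraries 1 to 4, so that library 1 was highest there and library 3 in most interferon-stimulated genes. Duct markers, 6 genes led by Spp1 and Krt19, summed to 61.9 to 76.4 in the controls and 229, 68.1, 120 and 31.4 in the labelled libraries. Lymph node stroma markers, 4 genes led by Ccl21a and Ccl19, summed to 1.46 to 1.92 in the controls and 11.2, 3.52, 6.54 and 1.38 in the labelled libraries.

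A pair of further type I targets outside the list of members were chosen after their values were seen. Lgals9, a galectin gene, had the lowest limma adjusted p of that list, 0.0575, with a log2 fold change of 1.67, 6.91 to 11.3 in the controls and 24.3, 25.8, 51.6 and 22.7 in the labelled libraries, without overlap. It passed without labelled library 4 (adjusted p = 0.0321, and 0.0321 to 0.631 over all alternatives). Ifi27l2a was 12.5 to 24.6 in the controls and 121, 67.0, 188 and 34.9 in the labelled libraries, with no overlap (limma adjusted p = 0.0885).

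Among the 28 members with a promoter in the RefSeq table, the median log2 fold change, fitted without an expression minimum, was 0.86 for the 19 with the response element letters and 1.01 for the 9 without.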
